A study of Homo sapiens with 6 samples.

Results

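YAP1, its paralog WWTR1 (TAZ), the DNA-binding factors TEAD1 and TEAD4, the kinase gene LATS2 and 5 target genes of this module, CCN1, CCN2, ANKRD1, AMOTL2 and AXL, are described here. They are the rows of the deposited gene table that carry these 10 symbols, out of 61552 genes, and all 10 passed the filter on low counts. Poly(A) RNA was sequenced from SKOV3, an established human ovarian cancer line with amplified ERBB2. Libraries fenbendazole 7, 8 and 9 (n = 3) were made from cells exposed to 1 µM of the tubulin-binding anthelmintic fenbendazole over 48 h. Libraries DMSO 10, 11 and 12 (n = 3) were made from cells given only the solvent DMSO over the same 48 h. All 6 libraries share 1 cell line and no genetic change beyond that of the line is given in the labels.

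YAP and TAZ are coactivators without a DNA-binding domain of their own. In the nucleus they bind TEAD factors, which recognise the core motif GGAATG, and TEAD-bound genes such as CCN1 and CCN2 are then transcribed. Upstream, the Hippo kinases MST1 and MST2 activate LATS1 and LATS2, which phosphorylate YAP and TAZ and keep them in the cytoplasm. Their activity is regulated mainly at the protein level, by phosphorylation, location, cell contact and tension of the actin cytoskeleton. LATS2 and AMOTL2 are themselves targets that restrain YAP.

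The promoter windows of the targets are shown because the TEAD core stands in them a different number of times. The RefSeq promoter table (GRCh38.p14) holds 250 bases before to 50 bases after each start site, and 7 of the 10 members matched it. CCN1, TEAD1 and TEAD4 did not. The motif GGAATG was searched on both strands, and 14.0% of all 35116 windows of the same length hold it at least once, 1.37% at least 2 times and 0.128% at least 3 times. CCN2 holds it 3 times, beginning 169, 104 and 95 bases upstream of the start site, and ANKRD1 2 times, 220 and 128 bases upstream. AMOTL2 and AXL have 2 listed start sites each, and in each gene 1 of the windows holds the motif once, on the other strand as CATTCC, 69 bases upstream in AMOTL2 and 212 in AXL. Each of these 4 windows is written 5′ to 3′ on the strand of its gene, with GGAATG or CATTCC in capitals. They lie at chr6:131951323-131951622 (CCN2), chr10:90921038-90921337 (ANKRD1) and chr3:134374398-134374697 (AMOTL2) on the minus strand, and at chr19:41226505-41226804 (AXL) on the plus strand. The windows of AMOTL2 and AXL written here lie inside the gene. Their other windows, at chr3:134375368-134375667 and chr19:41218973-41219272, span the 5′ end of the gene in the deposited coordinates and hold the motif 0 times.
CCN2: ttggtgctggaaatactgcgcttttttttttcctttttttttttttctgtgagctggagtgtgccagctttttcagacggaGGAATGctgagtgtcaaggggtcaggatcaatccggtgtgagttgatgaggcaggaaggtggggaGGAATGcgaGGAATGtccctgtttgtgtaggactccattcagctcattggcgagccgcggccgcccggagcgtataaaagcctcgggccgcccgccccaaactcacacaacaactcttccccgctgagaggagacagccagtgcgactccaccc
ANKRD1: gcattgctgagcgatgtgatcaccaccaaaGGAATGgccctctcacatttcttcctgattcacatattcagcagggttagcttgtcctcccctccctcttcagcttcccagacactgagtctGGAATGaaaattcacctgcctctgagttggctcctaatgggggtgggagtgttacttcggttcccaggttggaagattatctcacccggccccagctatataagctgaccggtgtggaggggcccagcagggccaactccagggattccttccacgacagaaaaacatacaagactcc
AMOTL2: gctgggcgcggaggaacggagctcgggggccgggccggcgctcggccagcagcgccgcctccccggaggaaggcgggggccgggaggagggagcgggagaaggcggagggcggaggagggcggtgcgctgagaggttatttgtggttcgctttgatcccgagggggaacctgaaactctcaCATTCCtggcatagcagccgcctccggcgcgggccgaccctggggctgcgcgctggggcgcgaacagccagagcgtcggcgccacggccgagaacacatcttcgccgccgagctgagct
AXL: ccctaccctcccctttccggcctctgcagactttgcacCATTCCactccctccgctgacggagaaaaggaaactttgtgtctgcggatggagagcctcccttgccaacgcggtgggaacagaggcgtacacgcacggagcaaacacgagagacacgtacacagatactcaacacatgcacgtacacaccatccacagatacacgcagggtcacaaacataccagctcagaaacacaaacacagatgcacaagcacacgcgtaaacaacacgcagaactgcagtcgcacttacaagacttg
Among the components, the windows of YAP1 and LATS2 hold the core once, 162 bases upstream in YAP1 and past the start site in LATS2, and those of WWTR1 do not hold these letters. The pattern TGANTCA is looser than the AP-1 motif, since it allows any middle base. It stands once in ANKRD1, as TGATTCA, 195 bases upstream and apart from both GGAATG matches, and in 7.71% of all windows. Neither the match nor this share is a count of AP-1 motifs. No member window holds a CArG box, the motif of serum response factor, which 1.29% of all windows hold. These matches describe letters in short windows and are not evidence of binding.

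Library totals ran from 13170775 to 22128930 counts, so that 3 counts correspond to 0.132 to 0.223 CPM (read counts scaled to library size, with the TMM correction for composition). By edgeR's quasi-likelihood F test, 540 of 17363 genes were higher and 160 lower at a Benjamini-Hochberg adjusted p of 0.05 (455 and 231 with upper-quartile scaling). DMSO 11 stood apart from the other 5 libraries. Its median correlation of log2 CPM with the others, over tested genes, was 0.936, against 0.962 to 0.967 for the rest. Relative to each gene's mean over the 6 libraries, its log2 CPM rose by 0.63 per 10 percentage points of GC content. In the other libraries this slope was -0.20 to -0.07. The mean includes DMSO 11, so the slopes are not independent of each other. Results that rest on DMSO 11 are therefore given with and without it. Of 10 ovarian carcinoma markers 0 were called higher and 2 lower. ERBB2 ran from 4224 to 4632 CPM with fenbendazole, against 7806 to 15881 CPM in DMSO, with the highest value in DMSO 11. Its log2 fold change was -1.29 (adjusted p = 0.0422 by edgeR), and -0.89 without DMSO 11 (adjusted p = 1.24e-07). CDH1 ran from 23.5 to 24.4 CPM, against 34.3 to 44.6 CPM (-0.76, adjusted p = 0.0453). Without DMSO 11 it stood at -0.71 (adjusted p = 0.00119). KRT7 ran from 225 to 231 CPM with fenbendazole, against 71.3 to 182.5 CPM in DMSO, and passed without DMSO 11 (adjusted p = 1.95e-09) but not with it (adjusted p = 0.148). PAX8 ran from 201 to 219 CPM with fenbendazole and from 237 to 342 CPM in DMSO. It passed as lower without DMSO 11 (log2 fold change -0.20, adjusted p = 0.0439 by edgeR) but not with it (-0.39, adjusted p = 0.226). WT1 (at most 1.26 CPM) and MUC16 (1.94 to 2.25 CPM with fenbendazole, 2.51 to 3.2 CPM in DMSO) were low. Summed leukocyte markers reached 0.463 to 1.08 CPM with fenbendazole and 0.167 to 0.483 CPM in DMSO, and CD3E was at 0 in every library. The other markers of fibroblasts (LUM and COL1A1 detected, DCN at most 0.223 CPM) and endothelium (PECAM1 detected, VWF at most 0.294 CPM) summed to 54.8 to 55.9 and 12.05 to 12.99 CPM with fenbendazole, against 47.1 to 86.2 and 9.70 to 11.6 CPM in DMSO, and the part of any of these markers in the results was not tested.

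CCN1, CCN2, ANKRD1 and AXL, 4 of the 5 targets, were 2.34-fold to 8.25-fold higher with fenbendazole, 0 of the 5 components passed the test, and 0 members were lower. Of all tested genes 4.03% were called, 3.11% higher and 0.921% lower. The CPM ranges of the groups did not overlap for 5 of the 10 members, the 4 called targets and TEAD1, all higher, against 32.6% of all tested genes in either direction and 17.0% in the higher one. The median log2 fold change was 1.303 over the 5 targets and 0.013 over the 5 components, against -0.058 over all tested genes. At an unadjusted edgeR p of 0.05, and equally by DESeq2 and limma-voom after adjustment, 4 targets and 0 components were higher. Of all 17363 tested genes, 1870 were higher and 1829 lower at that unadjusted threshold. After adjustment, DESeq2 called 1004 higher and 722 lower of all genes, and limma-voom 594 and 156. Without DMSO 11, the medians were 1.34 over the targets and 0.17 over the components, against -0.0073 over all tested genes. In that fit 4 targets and 1 component, LATS2, were higher after adjustment, where 13.1% of all tested genes were higher and 9.23% lower. At an unadjusted p of 0.05 in the same fit the components numbered 3 higher and 1 lower. Over all 17689 genes tested there, 3240 were higher and 2739 lower at that threshold. In these bulk samples, more cells that express a gene and more of its RNA per cell cannot be told apart.

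**Figure D1:**
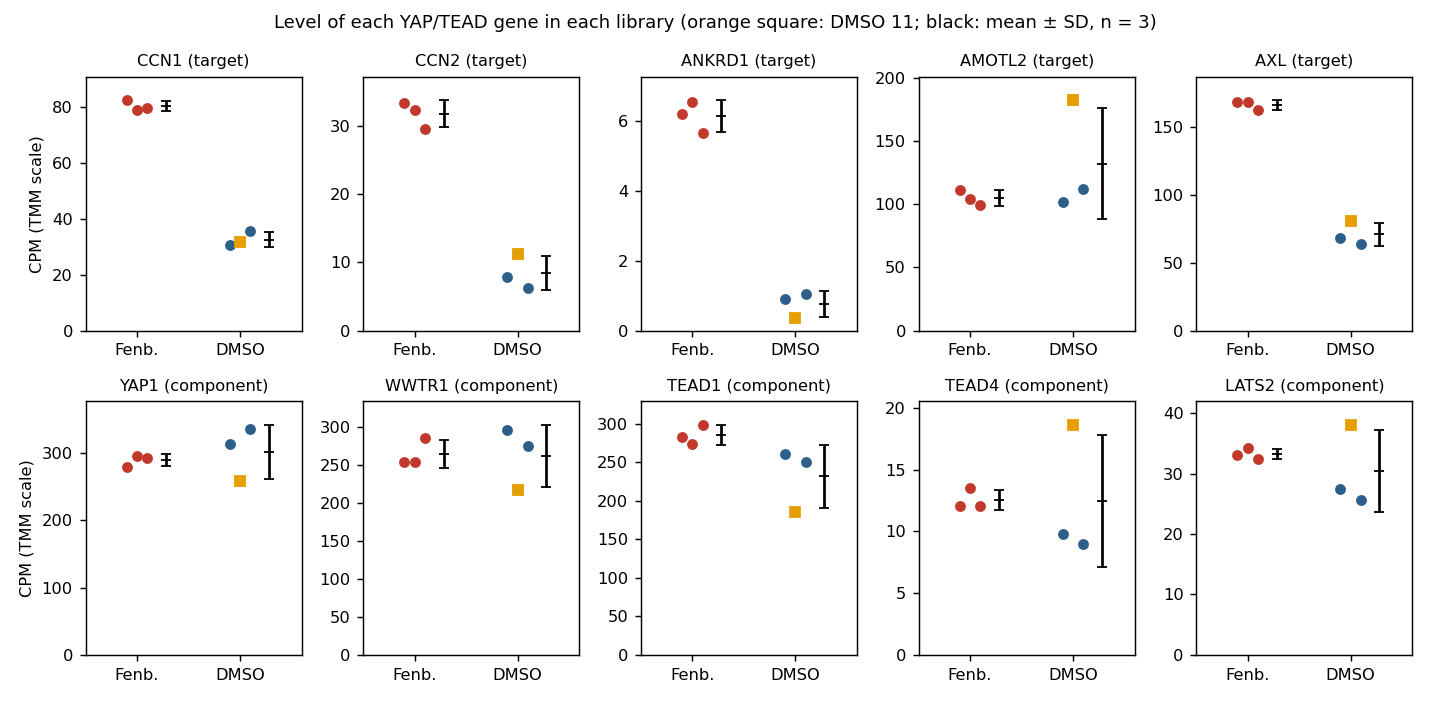
CPM on the TMM scale in each library, for the 5 targets (upper row) and 5 components (lower row), with fenbendazole at left and DMSO at right of each panel; black marks are means ± SD (n = 3) and the orange square is DMSO 11. The fenbendazole libraries lie above every DMSO library in CCN1, CCN2, ANKRD1, AXL and, by a small margin, TEAD1.

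CCN1 (CYR61, ENSG00000142871, chromosome 1, 85580761 to 85584589, GRCh38) encodes a secreted protein of the extracellular matrix that binds integrins. Its level was 82.4, 78.9 and 79.5 CPM in fenbendazole 7, 8 and 9, against 30.4, 31.7 and 35.5 CPM in DMSO 10, 11 and 12. The groups were far apart, and DMSO 11 was not the outermost control. The difference was 2.47-fold, with a log2 fold change of 1.303 ± 0.131 (SE) and an adjusted p of 0.00261 by edgeR's quasi-likelihood test. It passed without each library in turn, where the log2 fold change ran from 1.26 to 1.37 and the adjusted p from 5.07e-07 to 0.034.

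CCN2 (CTGF, ENSG00000118523, chromosome 6, 131948176 to 131951372), a matrix protein of the same family known for its part in fibrosis, started from a lower level. It had 33.4, 32.3 and 29.6 CPM with fenbendazole, against 7.80, 11.1 and 6.25 CPM in DMSO. Here DMSO 11 was the highest control and still stood well under the treated libraries. The difference was 3.76-fold (log2 fold change 1.91 ± 0.239, SE, adjusted p = 0.0072 by edgeR) and 4.51-fold without DMSO 11 (adjusted p = 2.16e-07). The call was lost without fenbendazole 7 (adjusted p = 0.0559) and without fenbendazole 8 (adjusted p = 0.0525), where the log2 fold change was 1.88 and 1.90.

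ANKRD1 (ENSG00000148677, chromosome 10, 90912096 to 90921087), an ankyrin repeat protein best known from heart muscle and a widely used readout of YAP activity, had the largest fold change of the members and the lowest level. Its raw counts were 94, 91 and 96 with fenbendazole, against 16, 8 and 14 in DMSO. On the CPM scale it reached 6.22, 6.57 and 5.65 with fenbendazole and 0.892, 0.351 and 1.04 in DMSO. All treated libraries thus held several times more reads than any control, at a depth where single control values rest on few reads. The log2 fold change was 3.04 ± 0.406 (SE, 8.25-fold, adjusted p = 0.00868 by edgeR). It was 2.67 without DMSO 11, the lowest control (6.38-fold, adjusted p = 3.25e-05). The call was lost without fenbendazole 7, 8 or 9 (adjusted p = 0.0585, 0.0593 and 0.0541), with log2 fold changes of 2.99 to 3.10.

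AXL (ENSG00000167601, chromosome 19, 41219223 to 41261766) encodes the receptor tyrosine kinase that binds GAS6. Its level was 168.5, 168.4 and 162.4 CPM with fenbendazole, against 67.9, 80.7 and 64.2 CPM in DMSO. The treated libraries were close to each other and about as far above DMSO as those of CCN1. The difference was 2.34-fold (log2 fold change 1.23 ± 0.132, SE, adjusted p = 0.00348 by edgeR), and it passed without each library in turn, with adjusted p from 1.57e-08 to 0.0378.

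AMOTL2 (ENSG00000114019, chromosome 3, 134355347 to 134375479), an angiomotin family scaffold that holds YAP at cell junctions, was the target that did not pass. It had 111.1, 104.3 and 99.1 CPM with fenbendazole, against 101.8, 182.2 and 111.9 CPM in DMSO. The groups overlapped, and DMSO 11 alone was high. The log2 fold change was -0.33 ± 0.225 (SE, adjusted p = 0.421 by edgeR), with a 95% interval of -0.86 to 0.19, and -0.020 ± 0.0798 without DMSO 11 (adjusted p = 0.894). With offsets for GC content and transcript length it was -0.092 (adjusted p = 0.503). Its interval lay below the estimates of CCN1, CCN2, ANKRD1 and AXL, although the difference between targets was not tested.

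**Figure D2:**
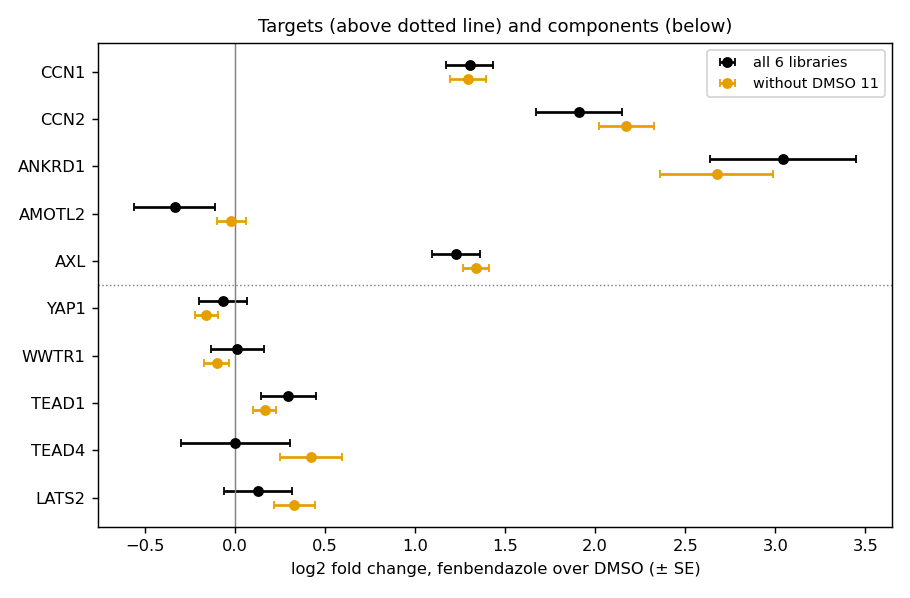
Log2 fold change of fenbendazole over DMSO with its SE for each member, in black with all 6 libraries and in orange without DMSO 11, targets above the dotted line and components below it. ANKRD1, CCN2, CCN1 and AXL lie right of 1 in both fits, and AMOTL2 lies at -0.33 with all libraries and at -0.020 without DMSO 11.

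The coactivator genes YAP1 and WWTR1 differed little between the groups. YAP1 (ENSG00000137693, chromosome 11, 102110447 to 102233424) had 279.3, 295.9 and 293.4 CPM with fenbendazole, against 313.6, 258.1 and 336.1 CPM in DMSO. WWTR1 (ENSG00000018408, chromosome 3, 149517235 to 149736714) had 253.1, 254.1 and 285.1 CPM with fenbendazole, against 295.3, 216.1 and 274.1 CPM in DMSO. In both genes the treated libraries lay inside the range of the controls, whose lowest library was DMSO 11. The log2 fold change was -0.064 ± 0.133 (SE) for YAP1, with a 95% interval of -0.37 to 0.25 (adjusted p = 0.809 by edgeR). For WWTR1 it was 0.013 ± 0.148, with an interval of -0.33 to 0.36 (adjusted p = 0.967), and its sign turned to -0.10 without DMSO 11. Without that library YAP1 stood at -0.16 ± 0.0631 (adjusted p = 0.092). Within each library the ratio of WWTR1 to YAP1, in deposited FPKM, was 0.828, 0.809 and 0.953 with fenbendazole, against 0.809, 0.813 and 0.752 in DMSO. The ratio differed by 0.12 on the log2 scale (exact permutation test over libraries, two-sided p = 0.2, where 3 against 3 libraries cannot go below 0.1).

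TEAD1 (ENSG00000187079, chromosome 11, 12674421 to 12944737), the most abundant TEAD gene here, had 282.6, 273.6 and 298.9 CPM with fenbendazole, against 261.1, 185.2 and 249.6 CPM in DMSO. The groups did not overlap, and DMSO 11 was the lowest library. Its log2 fold change was 0.30 ± 0.154 (SE, adjusted p = 0.306 by edgeR), with a 95% interval of -0.062 to 0.66, and 0.17 without DMSO 11 (adjusted p = 0.0816). TEAD4 (ENSG00000197905, chromosome 12, 2959330 to 3040676) stood near 10 CPM, at 12.05, 13.5 and 12.1 with fenbendazole, against 9.75, 18.6 and 9.0 in DMSO. DMSO 11 was the highest of all 6 libraries and the other controls were the lowest. The log2 fold change was 0.0027 ± 0.302 (SE, adjusted p = 0.996 by edgeR), with an interval of -0.70 to 0.71, and 0.42 ± 0.172 without DMSO 11 (adjusted p = 0.0977), so these libraries leave a change of TEAD4 poorly bounded.

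Per transcript length, in the FPKM the authors deposited, TEAD1 led the TEAD family in both groups. With fenbendazole its share of the summed FPKM of TEAD1 to TEAD4 was 63.4%, 59.6% and 65.7%, and in DMSO 63.1%, 38.0% and 60.9%. The low share belonged to DMSO 11. TEAD4 took 14.3%, 15.6% and 14.0% of this sum with fenbendazole, against 12.3%, 20.8% and 12.3% in DMSO (exact permutation test, two-sided p = 1). The difference in the TEAD4 share was -0.49 percentage points with all libraries and 2.34 without DMSO 11 (exact permutation p = 0.2, the smallest that 3 against 2 libraries allow). TEAD2 and TEAD3, the other paralogs, had log2 fold changes of -0.47 ± 0.305 and -0.49 ± 0.245 (SE, adjusted p = 0.402 and 0.29 by edgeR), and -0.059 and -0.18 without DMSO 11. In both, DMSO 11 held the highest level of the 6 libraries. TEAD3 took 10.4%, 10.3% and 10.04% of the summed TEAD FPKM with fenbendazole, against 11.9%, 18.3% and 13.6% in DMSO, without overlap (exact permutation test, two-sided p = 0.1, the smallest that 3 against 3 libraries allow). The exact permutation p was 0.4 for the share of TEAD1 and 0.4 for that of TEAD2, and the 4 shares are not independent because they add up to the whole.

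**Figure D3:**
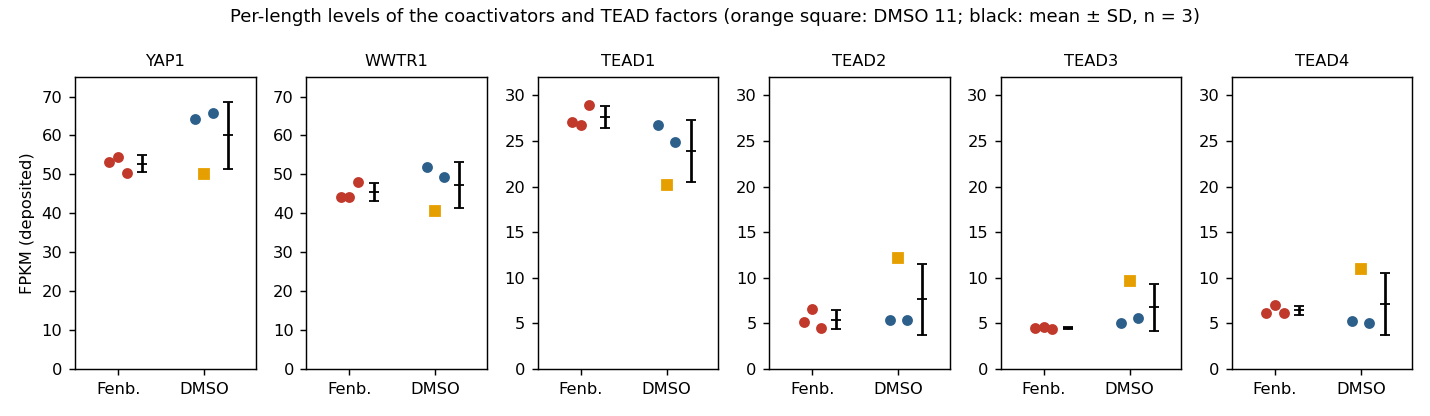
Deposited FPKM in each library for YAP1, WWTR1 and the 4 TEAD genes, with fenbendazole at left and DMSO at right; black marks are means ± SD (n = 3) and the orange square is DMSO 11. DMSO 11 is the lowest library for YAP1, WWTR1 and TEAD1 and the highest for TEAD2, TEAD3 and TEAD4.

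LATS2 (ENSG00000150457, chromosome 13, 20973036 to 21061586), the kinase that inactivates YAP and TAZ and is itself a YAP target, had 33.1, 34.2 and 32.5 CPM with fenbendazole, against 27.5, 38.1 and 25.7 CPM in DMSO. The treated libraries lay between DMSO 11 and the other controls. The log2 fold change was 0.13 ± 0.188 (SE, adjusted p = 0.724 by edgeR), with a 95% interval of -0.31 to 0.56. Without DMSO 11 it was 0.33 ± 0.112 and passed narrowly (adjusted p = 0.0487), in a fit that called 22.3% of tested genes, 13.1% higher and 9.23% lower. With GC and length offsets it was 0.23 (adjusted p = 0.194).

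In per-length levels the order of the members differed between the groups. With fenbendazole, mean FPKM was 52.8 ± 2.11 for YAP1 and 45.4 ± 2.30 for WWTR1 (SD, n = 3), and then 31.3 ± 1.64 for AXL, 30.0 ± 1.20 for CCN1 and 27.6 ± 1.19 for TEAD1. The ranges of AXL and CCN1 overlapped, as did those of CCN1 and TEAD1. AMOTL2 (23.4 ± 1.46), CCN2 (11.6 ± 0.868) and TEAD4 (6.43 ± 0.499) followed, each apart from its neighbours above, and then LATS2 (5.16 ± 0.228) and ANKRD1 (2.90 ± 0.264). In DMSO, YAP1 (60.02 ± 8.65), WWTR1 (47.4 ± 5.92) and AMOTL2 (32.5 ± 15.8) each overlapped the next in order, down to TEAD1 (23.9 ± 3.41). AXL (14.98 ± 3.88) and CCN1 (12.4 ± 1.21) overlapped and lay below TEAD1, TEAD4 (7.07 ± 3.39) and LATS2 (5.07 ± 1.41) overlapped, and CCN2 (3.25 ± 1.09), whose range met that of LATS2, and ANKRD1 (0.365 ± 0.175) came last. Thus AXL and CCN1 stood at or above the level of TEAD1 with fenbendazole and below it in DMSO.

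The position of DMSO 11 among the controls differed between members, and over all tested genes it ran with GC content. Against the mean of DMSO 10 and 12, its level was 1.99 times as high for TEAD4 (60.4% GC in the longest transcript), 1.71 times for AMOTL2 (56.7%) and 1.44 times for LATS2 (51.8%). It was 0.795 times for YAP1 (43.5%), 0.759 for WWTR1 (40.9%) and 0.725 for TEAD1 (41.3%). CCN1 (50.3%) was at 0.961 times and AXL (53.9%) at 1.22 times. CCN2 (51.5%) was at 1.59 times and ANKRD1 (43.3%) at 0.363 times, ANKRD1 from 8 counts in DMSO 11. Over tested genes in 10 bins of GC content, the median log2 ratio of DMSO 11 to the other controls was -0.83 in the lowest bin and 1.20 in the highest. With GC and length offsets the log2 fold changes of CCN1, CCN2, ANKRD1 and AXL were 1.31, 1.96, 2.93 and 1.36, all past the threshold, and those of the 5 components ran from -0.18 (WWTR1) to 0.41 (TEAD4) with 0 past it.

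**Figure D4:**
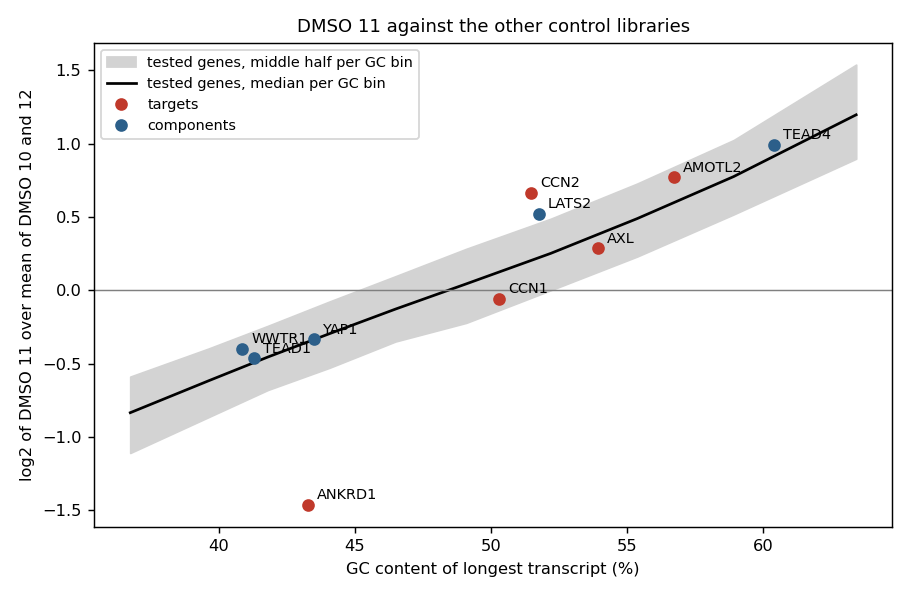
Log2 of the CPM in DMSO 11 over the mean of DMSO 10 and 12 against the GC content of the longest transcript, for the members (red targets, blue components), with the median and interquartile band of all tested genes in 10 GC bins. TEAD4 and AMOTL2 follow the trend at higher GC content, and YAP1, WWTR1 and TEAD1 follow it at lower GC content. CCN2 and, by a small margin, LATS2 lie above the band, and ANKRD1 lies below it.

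Of 16 other published YAP and TAZ targets, a signature from which the members were left out, 15 were tested, 3 were higher, 1 was lower and 11 were not called, with a median log2 fold change of 0.056. Over all tested genes 3.11% were higher and 0.921% lower. F3, which encodes tissue factor, had 741.5, 696.5 and 737.4 CPM with fenbendazole, against 163.7, 129.2 and 173.5 CPM in DMSO, and was the only one of the 4 to pass without each library in turn (log2 fold change 2.22 ± 0.146, SE, adjusted p = 0.000807 by edgeR). NT5E (CD73), an enzyme that makes adenosine outside the cell, reached 106.4 ± 2.13 CPM with fenbendazole and 54.0 ± 8.77 CPM in DMSO (SD, n = 3 each, 1.97-fold, adjusted p = 0.0145 by edgeR). CRIM1, a transmembrane protein that binds bone morphogenetic proteins, was 1.53-fold higher (adjusted p = 0.0345), a call lost with upper-quartile scaling (adjusted p = 0.0619). CCDC80, a secreted matrix protein, fell to 29.6 ± 2.14 CPM with fenbendazole, against 50.1 ± 6.61 CPM in DMSO (adjusted p = 0.0421). Among those that did not pass, the 3 of the highest per-length level were IGFBP3, which binds insulin-like growth factors (log2 fold change -0.30, adjusted p = 0.215), GADD45A, a stress-response gene (0.19, adjusted p = 0.663), and MYOF, a membrane repair protein (0.056, adjusted p = 0.818). Without DMSO 11, IGFBP3 passed as lower (-0.21, adjusted p = 0.0266 by edgeR) and GADD45A as higher (0.495, adjusted p = 0.0121). MYOF did not pass there either (0.013, adjusted p = 0.924). FJX1 had 1 to 8 counts per library and was not tested. Without fenbendazole 7, 8 or 9 the list gave 1 higher and 0 lower gene, without DMSO 10 or 12 it gave 2 and 0, and without DMSO 11 it gave 6 and 4, in the fit that called 13.1% of all genes higher and 9.23% lower. Calls over all tested genes also fell in the other fits. Without fenbendazole 7, 8 or 9 they numbered 139, 144 and 141 higher, with 8 lower each time. They numbered 248 higher and 30 lower without DMSO 10, and 420 and 100 without DMSO 12.

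Among other genes of the Hippo pathway, 37 kinases, adaptors, scaffolds and regulators were tested, LATS1 included. Of these 1 was higher and 0 were lower, with a median log2 fold change of 0.046. As a share, 1 of 37 is close to the 3.11% of all tested genes called higher. At an unadjusted edgeR p of 0.05 the 37 genes numbered 4 higher and 1 lower, against 1870 and 1829 of all 17363 tested genes. The higher share was thus close to that of all genes and the lower share under it. DESeq2 and limma-voom each gave 1 and 0. FRMD6, a FERM domain protein related to Drosophila Expanded, had 68.9, 67.0 and 69.1 CPM with fenbendazole, against 34.7, 27.7 and 31.9 CPM in DMSO. The mean was 2.17-fold higher with fenbendazole (log2 fold change 1.12 ± 0.142, SE, adjusted p = 0.00707 by edgeR), a call lost without fenbendazole 7, 8 or 9 (adjusted p = 0.0638, 0.0593 and 0.0656). The 16 kinases and adaptors gave 0 calls. Those of the highest per-length level were MOB1A, an adaptor of LATS (log2 fold change 0.23, adjusted p = 0.526), MAP4K4 (0.41, adjusted p = 0.161) and TAOK1 (0.15, adjusted p = 0.661), kinases that act on this cascade. Of the 21 scaffolds and regulators, FGFR1OP2 and SLMAP, members of a phosphatase complex that opposes the MST kinases, stood at 0.56 and 0.42 (adjusted p = 0.29 and 0.198), and AJUBA, a LIM protein that inhibits LATS, at -0.16 (adjusted p = 0.676). Without DMSO 11, 5 of the 37 were higher and 2 lower, shares near or under the 13.1% and 9.23% of all genes in that fit. These were FRMD6, RASSF1, MAP4K4, SLMAP and NF2, and TAOK3 and MAP4K3, of which RASSF1, NF2, TAOK3 and MAP4K3 are named after their values were seen.

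**Figure D5:**
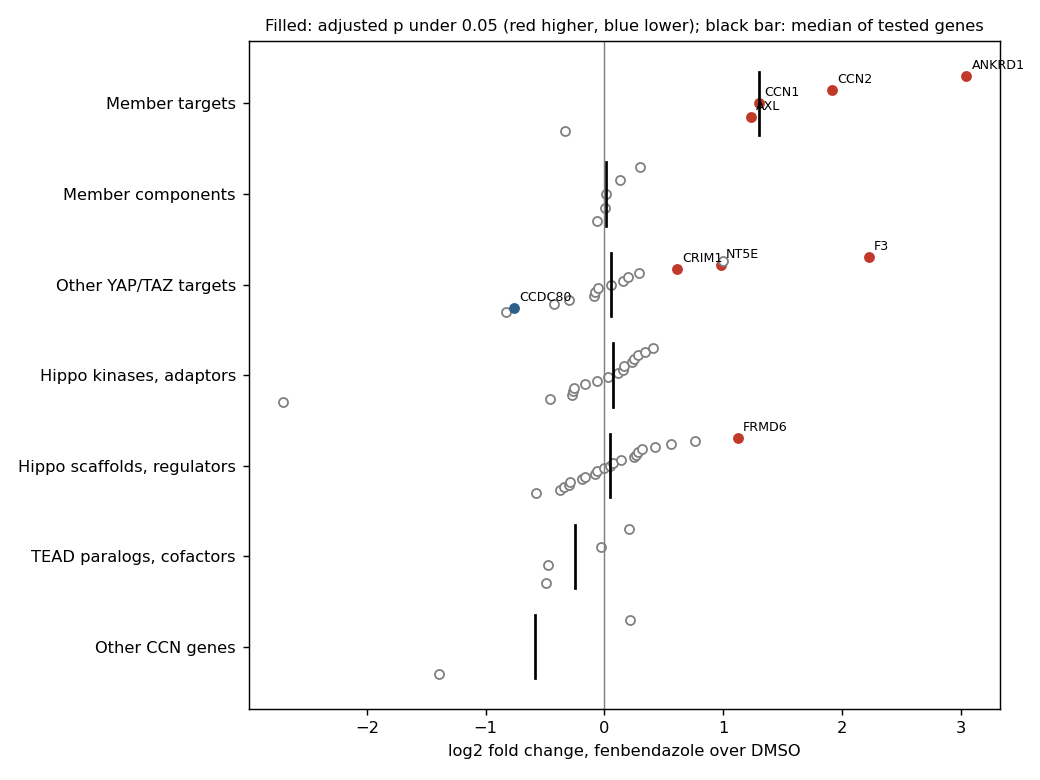
Log2 fold change of every tested gene of each list, filled where the adjusted p is under 0.05 (red higher, blue lower with fenbendazole), with the median of each list as a black bar. The filled points are 4 member targets, F3, NT5E, CRIM1, CCDC80 and FRMD6, and the medians of the component and Hippo lists lie close to 0.

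Of the 6 other TEAD paralogs and cofactors 4 were tested and 0 called, also at an unadjusted p of 0.05 and by DESeq2. Of all tested genes 4.03% were called, and at the unadjusted threshold 1870 of 17363 were higher and 1829 lower. DESeq2 called 1004 higher and 722 lower of all genes. A list of 4 genes is therefore too short for 0 calls to be read as a result about it. VGLL4, a repressor that competes with YAP for TEAD, stood at -0.030 on the log2 scale (adjusted p = 0.909 by edgeR), whereas VGLL1 and VGLL2 had 0 counts in every library, where 3 counts would be at most 0.223 CPM. Of the other CCN genes, CCN3 stood at 0.21 (adjusted p = 0.551). CCN5 reached 1.52, 1.44 and 1.47 CPM with fenbendazole, against 2.90, 5.44 and 3.27 CPM in DMSO, without overlap, but did not pass (log2 fold change -1.39 ± 0.334, SE, adjusted p = 0.0662). It stood at -1.05 without DMSO 11 (adjusted p = 0.0449). CCN4 and CCN6 had at most 1 and 4 counts in a library and were not tested.

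The genes whose levels followed those of CCN1, CCN2 and AXL most closely were found among 10290 genes with a mean of at least 10 CPM. The measure was the smallest root mean square difference of centred log2 CPM over the 6 libraries. ANKRD1 was not searched in this way. For CCN1 they were MGME1, GINS4 and TNFAIP3, with differences of 0.065, 0.0783 and 0.101 on the log2 scale. For CCN2 they were CDCA5, CENPA and CDCA8 (0.0754, 0.108 and 0.132), and for AXL they were NDE1, AFAP1L1 and ARHGEF39 (0.0457, 0.0627 and 0.0721). With 2 groups and 6 libraries this measure mainly ranks genes by the size of their group difference and by DMSO 11.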

How the data were processed

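Raw read counts per gene, deposited by the authors without normalization, and FPKM values, normalized by the authors for transcript length and depth per the file headers, were used for 6 libraries. The build was GRCh38, and the tools named in the submitters' processing notes are HISAT2 2.1.0, CASAVA 1.8, edgeR and StringTie 1.3.4b. Which program counted reads, with which strand setting and annotation, is not given in the sources used here. Genes that overlap 7 of the members held at most 0.433% of the member's counts.

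The robust quasi-likelihood F test of edgeR 4.0.16, run in R 4.3.3, was applied to the counts with TMM and edgeR's filter on low counts, adjusted over all 17363 tested genes. SE and 95% intervals come from the F statistic and its degrees of freedom. Whether the 3 libraries of a group were grown as separate cultures is not said in the labels. The p-values then reflect only how these libraries vary, and that variation may be technical. No replicates were close enough to be 1 library: the lowest chi-square over degrees of freedom within a group was 4.86. On simulated counts for 16859 genes of this comparison the fit recovered 4 of 67 genes at a true fold of 1.5, 31 of 67 at 2 and 60 of 66 at 4, so small changes of the components would mostly be missed.

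Members, lists and tests were chosen with earlier results of these data known. Named list genes are those past the threshold and the 3 others of the highest mean FPKM. Alternatives were other scalings and filters, DESeq2 1.42.0, limma-voom and limma on log2 FPKM plus 1 or 0.1 (limma 3.58.1), an adjusted p of 0.01, and leaving out each library. GC and length offsets used splines over the longest GENCODE v29 transcript, which covered 97.8% of tested genes. Figures were drawn with matplotlib 3.10.9.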

Additional observations from a re-analysis of the deposited data

How the results depend on the processing

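No paired analysis was possible because the labels number the libraries 7 to 9 in one group and 10 to 12 in the other. CCN1, CCN2, ANKRD1 and AXL were called higher, and no other member was called, under all 12 settings other than leaving out a library; 4 members were then higher and 0 lower each time. Leaving out 1 library gave 2 to 5 higher members, 2 without fenbendazole 7 or 8 and 5 without DMSO 11. GC and length offsets, DESeq2, library quality weights and an adjusted p of 0.01 gave 2048, 1004, 2355 and 193 genes higher and 1613, 722, 2051 and 17 lower. Leaving out 1 library gave 139 to 2313 higher and 8 to 1633 lower genes. For the other targets, the higher genes numbered 6 with GC offsets, 5 with quality weights and 1 at 0.01, and the lower 3, 4 and 0, with 2 lower by DESeq2; without 1 library they ran from 1 to 6 and from 0 to 4. For the other Hippo pathway genes, GC offsets gave 4 higher and 2 lower, quality weights 5 and 3, and leaving out 1 library 0 to 5 and 0 to 2. Uncalled log2 fold changes near 0 changed sign. WWTR1 was at -0.060 with upper-quartile scaling, -0.18 with GC offsets, -0.14 with quality weights and -0.052 and -0.053 with FPKM plus 1 and plus 0.1, and from -0.10 to 0.11 without 1 library. TEAD4 was at -0.062 with upper-quartile scaling, -0.025 with no filter, -0.012 by DESeq2, and -0.045 and -0.041 with FPKM plus 1 and plus 0.1, and from -0.18 to 0.42 without 1 library. Without 1 library, YAP1 ran from -0.16 to 0.024 and the difference in the TEAD4 share from -1.91 to 2.34 percentage points. With FPKM plus 1, ANKRD1 rose by 1.52 on the log2 scale, since a pseudocount shrinks changes of low genes. Otherwise the cause was not tested.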
